A study of Mus musculus with 8 samples.

Results

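The NuRD complex (nucleosome remodelling and deacetylase) was followed at the level of its transcripts through 10 genes, Chd4, Mta1, Mta2, Hdac1, Hdac2, Mbd3, Rbbp4, Rbbp7, Gatad2a and Gatad2b. They were chosen by name as subunits of a known partner complex of the transcription factor Bcl11b, and 10 of 10 were found among 23997 genes in the table. All 10 passed the filter on low values (1 FPKM or more on average across independent libraries), as did 10614 genes in all. FPKM, fragments counted relative to transcript length and library size, allows levels of different genes to be compared because it is per length.

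The cells were Treg cells, the suppressive T lymphocytes governed by Foxp3, taken from C57BL/6 mice and sorted as CD4+YFP+ from lymph nodes and spleen. Bcl11b-deficient cells had the genotype Bcl11b f/f Foxp3-YFP-Cre/+ and Bcl11b-sufficient cells the genotype Bcl11b f/+ Foxp3-YFP-Cre/+, with 4 columns of values in each group, numbered here by replicate. Both groups thus carried 1 YFP-Cre allele at Foxp3 and at least 1 floxed Bcl11b allele, so the sufficient cells were not wild type at Bcl11b. Cre came from the Foxp3 locus, so deletion was directed to Foxp3-expressing cells, and ages were not given in the labels. The comparison asked whether NuRD transcripts differ in Treg cells when Bcl11b is deleted.

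NuRD joins an ATPase that slides nucleosomes (Chd4, or its relatives Chd3 and Chd5) to histone deacetylases (Hdac1 and Hdac2) in a single assembly. Mta proteins form its scaffold and hold the deacetylases, Rbbp4 and Rbbp7 bind histones, Mbd2 or Mbd3 occupies the same position in alternative forms of the complex, and Gatad2a or Gatad2b links the ATPase to the rest. Bcl11b is a zinc finger protein of T cells that recruits NuRD to DNA through its N-terminal end, and several of the subunits, above all the deacetylases and Rbbp proteins, also serve other complexes.

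The 8 columns were counted as 5 independent libraries. This was inferred from the values with a chosen bound of 1.5 times the sampling spread, whereas the submitters describe quadruplicates. Within 3 pairs of columns (1 with 3 and 2 with 4 in deficient cells, 1 with 3 in sufficient cells) values differed by 0.991 to 1.15 times the spread that read sampling gives, against 1.71 to 2.36 times for the 9 remaining pairs of a group. Columns of such a pair differed by no more than about the sampling noise and were averaged, each pair being counted as 1 sample, so that 2 deficient and 3 sufficient libraries remained. Depth was approximately 2870000 to 12600000 fragments per column, and the member with the fewest fragments, Gatad2b, still had approximately 128 in its shallowest column. The labels do not place the libraries in separate animals, and p-values therefore rest on library-to-library spread that may be technical. Bcl11b itself averaged 21.7 ± 3.83 FPKM in deficient libraries and 42.7 ± 3.68 FPKM in sufficient libraries (SD, n = 2 and 3; log2 fold change -0.95, limma adjusted p = 0.0238). That call ended without a filter on low values (0.0726), with totals made equal (0.0811), without sufficient replicate 2 (0.0602), and when deficient 1 with 3 (0.0774), deficient 2 with 4 (0.133) or sufficient 1 with 3 (0.0522) was dropped. FPKM covers the whole gene, so the deleted exons were not read on their own. The list of 8 Treg and T cell markers was detected in both groups, and its median log2 fold change was -0.38. Of these markers 4 were lower at an unadjusted p under 0.05, which 17.8% of all genes tested reached in either direction. Foxp3 was at 153 ± 0.517 FPKM in deficient libraries, against 187 ± 18.8 FPKM in sufficient ones. Il2ra had 112 FPKM in deficient libraries, against 179 FPKM in sufficient ones (adjusted p = 0.0783), and Tnfrsf18 had 199.95 FPKM in deficient libraries, against 279 FPKM in sufficient ones (adjusted p = 0.0810). Only Ctla4 was called, lower at 111 FPKM in deficient libraries, against 375 FPKM in sufficient ones. Markers of macrophages were higher in the deficient libraries: 11 of 11 tested list members had a positive log2 fold change and 6 were called (Lyz2, Cd68, Emr1, Itgam, Fcgr3 and Mpeg1), with a summed level of 291 and 640 FPKM in the 2 deficient libraries and 16.5 to 69.1 FPKM in the sufficient libraries. Of the NK markers 7 of 7 tested had a positive log2 fold change and 4 were called higher (Klrd1, Klrk1, Fcer1g and Tyrobp). Nkg7, Klrb1c and Eomes were not called, with log2 fold changes of 0.92, 0.52 and 0.04. Eomes was nearly level, at 1.26 FPKM in deficient libraries, against 1.20 FPKM in sufficient ones, which overlapped. Whether the 4 called genes were expressed by NK cells or by other cells was not tested. Ncr1 and Klre1 did not pass the filter and were not tested. They averaged 0.348 and 0.162 FPKM in deficient libraries, against 0.128 and 0 FPKM in sufficient libraries. Of the B cell markers 2 of 7 passed the filter and 0 were called, and the list summed to 9.40 and 13.1 FPKM in the 2 deficient libraries, against 10.4 to 20.5 FPKM in the sufficient libraries. Dendritic cell markers had 2 of 4 tested called higher, Siglech and Batf3, and Cd8b1, the CD8 marker tested, was not called. Beside these marker counts, 1.93% of all genes tested were called higher and 0.697% lower, and 47.9% had a positive log2 fold change. The part of these other cell markers in the NuRD values was not tested, and in bulk samples fewer cells of a type and less RNA per cell cannot be told apart.

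None of the 10 NuRD subunit genes was called between deficient and sufficient cells (limma on log2(FPKM + 1), Benjamini-Hochberg adjusted p under 0.05 over all 10614 genes). Of all genes tested 2.63% were called, 1.93% higher and 0.697% lower in deficient cells, so a count of 0 among 10 members is near the background. At an unadjusted p under 0.05 there were 3 members, Chd4 and Gatad2a higher and Mbd3 lower, against 17.8% of all genes tested. The member with the lowest adjusted p was Mbd3, at 69.1% of its sufficient level (adjusted p = 0.0711), and the most abundant was Chd4, at 125% (adjusted p = 0.220). The median log2 fold change was 0.0045 over the members and -0.01 over all genes tested, and the median size regardless of sign was 0.19 for members and 0.16 for all genes.

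**Figure D1:**
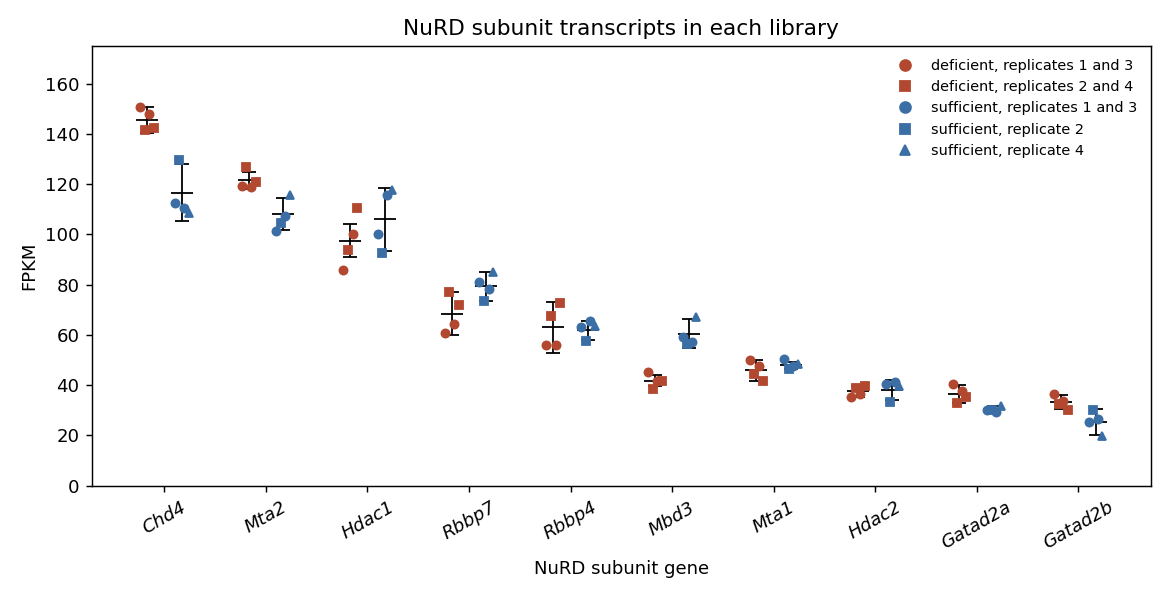
FPKM (linear axis) of the 10 NuRD subunit genes in each of the 8 columns, deficient left of sufficient within a gene, ordered by level in sufficient libraries. Marker shapes show which columns were averaged into 1 library, and bars give mean ± SD over 2 deficient and 3 sufficient libraries. Chd4 lay between 141.5 and 151 FPKM in deficient and between 109 and 130 FPKM in sufficient columns, and Mbd3 between 38.5 and 45.3 FPKM in deficient and between 56.3 and 67.1 FPKM in sufficient columns.

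The subunits were far from equally abundant. In deficient libraries the mean levels ran Chd4 (146 FPKM), Mta2 (121), Hdac1 (97.6), Rbbp7 (68.5), Rbbp4 (63.0), Mta1 (45.9), Mbd3 (41.8), Hdac2 (37.5), Gatad2a (36.6) and Gatad2b (33.3 FPKM). In sufficient libraries they ran Chd4 (117 FPKM), Mta2 (108), Hdac1 (106), Rbbp7 (79.4), Rbbp4 (61.8), Mbd3 (60.5), Mta1 (48.0), Hdac2 (38.0), Gatad2a (30.5) and Gatad2b (25.4 FPKM). The order was the same in both groups except that Mbd3 and Mta1 changed places. Neighbours whose libraries overlapped, and whose order is therefore not settled, were Rbbp7 with Rbbp4, Mta1 with Mbd3, Hdac2 with Gatad2a and Gatad2a with Gatad2b in deficient cells, and Chd4 with Mta2, Mta2 with Hdac1, Rbbp4 with Mbd3 and Gatad2a with Gatad2b in sufficient cells. All members were well expressed: Chd4 stood at percentile 96.0 of the tested genes in deficient and 94.3 in sufficient cells, and Gatad2b at 75.4 in deficient and 67.4 in sufficient cells. The sum over the 10 genes was 680, 694, 684 and 707 FPKM across deficient columns 1 to 4, against 664, 654, 680 and 697 FPKM across sufficient columns 1 to 4, so the groups overlapped. As a percentage of each column's total FPKM the sum was 0.143% in all 4 deficient columns, against 0.114% to 0.128% in sufficient columns, which did not overlap. Total FPKM was itself lower in every deficient column, at 474416 to 495435, against 509592 to 613276 in sufficient columns. With totals made equal the median log2 fold change was 0.18 over all genes tested and 0.21 over the members.

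The upstream sequences of the genes are shown because they share a feature that the choice of members did not use. RefSeq (GRCm38.p6) gave windows of 250 bases upstream of annotated starts for 9 members and none for Hdac1. All 12 windows held GGGCGG on either strand, the GC box bound by Sp1-type factors, against 32.7% of all 32851 windows, 58.4% of the windows of tested genes and 60.25% of those of genes at a mean of at least 25 FPKM. The 12 windows came from 9 genes, and the 2 windows of Chd4 overlapped. Their median GC content was 65.8%, against 60% for windows of tested genes and 52.4% for all windows. CCAAT, on either strand, was in 7 of 12, in 33.9% of all windows and in 35.5% of those of tested genes. TGACCA, the motif known for the relative BCL11A, was in 0 of 12, in 11.4% of all windows and in 9.57% of those of tested genes. The count of 0 says only that these letters are not in these windows. A match is a description and not a site. The windows of Chd4 and Mbd3, the members with the lowest unadjusted p in either direction, are printed from their 5′ end on the gene's strand, without bases inside the annotated gene, and capitals mark the GC box on either strand.

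Chd4, chr6:125095731-125095980, plus strand: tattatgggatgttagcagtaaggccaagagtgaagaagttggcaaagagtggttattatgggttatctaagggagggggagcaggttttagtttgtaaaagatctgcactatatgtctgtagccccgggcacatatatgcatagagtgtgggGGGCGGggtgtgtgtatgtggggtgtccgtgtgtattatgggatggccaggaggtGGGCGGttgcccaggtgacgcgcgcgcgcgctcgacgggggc

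Mbd3, chr10:80399551-80399781, minus strand: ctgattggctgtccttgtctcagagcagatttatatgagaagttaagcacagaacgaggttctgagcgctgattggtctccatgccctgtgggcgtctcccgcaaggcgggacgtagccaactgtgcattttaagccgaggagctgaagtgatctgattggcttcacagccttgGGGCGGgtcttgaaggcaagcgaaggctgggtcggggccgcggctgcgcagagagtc

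The Chd4 window held 2 copies of the GC box and the Mbd3 window 1 copy, so 2 genes with opposite signs of fold change had it in common.

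Chd4, the ATPase that gives NuRD its remodelling activity, lies on chromosome 6 (125095981 to 125130591, plus strand, GENCODE M21 on GRCm38). It had 151, 141.5, 148 and 142 FPKM across deficient columns 1 to 4, against 113, 130, 111 and 109 FPKM across sufficient columns 1 to 4. Every deficient column was above every sufficient column, and sufficient replicate 2 came nearest. A microRNA gene and a small Cajal body RNA gene are annotated inside Chd4 on the same strand. The log2 fold change was 0.32 (SE 0.12, 95% interval 0.05 to 0.60), a fold of 1.25, which did not pass (adjusted p = 0.220). As an exact two-sided permutation test over libraries it gave p = 0.2, where the smallest p that 2 against 3 libraries allow is 0.1.

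Hdac1 and Hdac2 are the catalytic deacetylases, which remove acetyl groups from histone tails. Hdac1 (chromosome 4, 129516104 to 129542713, minus strand) had 85.9, 93.7, 100.02 and 111 FPKM across deficient columns 1 to 4, against 100.2, 92.7, 116 and 118 FPKM across sufficient columns 1 to 4, and the groups overlapped (log2 fold change -0.11, 95% interval -0.42 to 0.19). RefSeq annotates a pseudogene of Hdac1 on chromosome 17, so reads may be shared between them and the Hdac1 level is less certain. Hdac2 (chromosome 10, 36974544 to 37001889, plus strand) had 35.2, 38.8, 36.6 and 39.5 FPKM across deficient columns 1 to 4, against 40.4, 33.4, 41.3 and 39.7 FPKM across sufficient columns 1 to 4. The deficient columns lay within the range of the sufficient columns, and the interval of the difference ran from -0.30 to 0.28 on the log2 scale, between 0.812 and 1.21 times the sufficient level.

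The scaffold proteins Mta1 and Mta2 recruit and activate the deacetylases. Mta1 (chromosome 12, 113098278 to 113137206, plus strand) had 50.1, 44.6, 47.5 and 41.6 FPKM across deficient columns 1 to 4, against 50.4, 46.4, 47.6 and 48.4 FPKM across sufficient columns 1 to 4, with a log2 fold change of -0.06 (SE 0.10). Mta2 (chromosome 19, 8941875 to 8952303, plus strand) had 119, 127, 119 and 121 FPKM across deficient columns 1 to 4, against 101, 105, 107 and 116 FPKM across sufficient columns 1 to 4. Mta1 overlapped between groups, while every deficient column of Mta2 was above every sufficient column, and the log2 difference of 0.17 did not pass (SE 0.10, adjusted p = 0.447).

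Mbd3, the methyl-binding domain family member that marks one form of NuRD, had the most negative fold change of the members. It lies on chromosome 10 (80392539 to 80399550, minus strand) and had 45.3, 38.5, 41.7 and 41.9 FPKM across deficient columns 1 to 4, against 59.2, 56.3, 57.2 and 67.1 FPKM across sufficient columns 1 to 4. Every deficient column was below every sufficient column. The means were 41.8 ± 2.34 FPKM in deficient libraries, against 60.5 ± 5.76 FPKM in sufficient ones (SD, n = 2 and 3), a log2 fold change of -0.52 (SE 0.11, 95% interval -0.79 to -0.25) that missed the threshold (adjusted p = 0.0711, exact permutation p = 0.1). With the 8 columns taken as separate libraries Mbd3, Chd4 and Gatad2a were called (adjusted p = 0.00219, 0.0109 and 0.0407), as were 1851 of 10612 genes in that fit, a count that treats near-identical columns as independent.

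The histone-binding WD40 proteins Rbbp4 and Rbbp7, which also belong to the Polycomb PRC2 and SIN3 complexes, did not pass. Rbbp4 (chromosome 4, 129307100 to 129335370, minus strand) had 55.8, 67.5, 56.0 and 72.8 FPKM across deficient columns 1 to 4, against 63.1, 57.5, 65.6 and 63.5 FPKM across sufficient columns 1 to 4. The deficient libraries lay on either side of the sufficient ones, so the log2 fold change of 0.02 (95% interval -0.28 to 0.32) averages libraries that differ. Rbbp7 (chromosome X, 162760402 to 162779092, plus strand) had 60.7, 77.1, 64.2 and 71.9 FPKM across deficient columns 1 to 4, against 81.0, 73.5, 78.5 and 84.9 FPKM across sufficient columns 1 to 4 (log2 fold change -0.21, 95% interval -0.50 to 0.07). That value was -0.0032 with totals made equal and -0.09 without deficient 1 with 3, and -0.34 without deficient 2 with 4. Both genes overlap a gene on the opposite strand, Sync for Rbbp4 and Txlng for Rbbp7; the kit keeps strand, and whether counting used it is unknown here.

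Gatad2a and Gatad2b, the p66 proteins that bridge the ATPase to the deacetylase core, had positive fold changes. Gatad2a (chromosome 8, 69907076 to 69996384, minus strand) had 40.6, 32.8, 37.7 and 35.4 FPKM across deficient columns 1 to 4, against 30.03, 30.02, 29.3 and 31.8 FPKM across sufficient columns 1 to 4. Gatad2b (chromosome 3, 90293178 to 90363407, plus strand) had 36.6, 32.7, 33.8 and 29.98 FPKM across deficient columns 1 to 4, against 25.4, 30.3, 26.7 and 19.7 FPKM across sufficient columns 1 to 4. Gatad2a was higher in every deficient column, and Gatad2b overlapped between single columns but not between averaged libraries. An antisense transcript is annotated opposite Gatad2b, with the same limit on strand as for Rbbp4. Both kept their sign under every scaling run, and neither passed (log2 fold change 0.25, SE 0.11, adjusted p = 0.278 for Gatad2a and 0.40, SE 0.18, adjusted p = 0.306 for Gatad2b). The Gatad2b value was 0.23 without sufficient replicate 4, and that of Gatad2a was 0.16 without deficient replicates 1 and 3.

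Over the independent libraries the groups did not overlap for 5 of the 10 members, Chd4, Mta2, Gatad2a and Gatad2b higher and Mbd3 lower in deficient cells, beside 36.7% of all genes tested. For values as deposited, the 95% interval of 10 of 10 members lay within 2-fold in either direction, and that of 7 of 10 lay within 1.5-fold, the exceptions being Chd4, Mbd3 and Gatad2b. Over all genes tested the interval lay within 2-fold for 9467 of 10614 and within 1.5-fold for 6492 of 10614. Making the library totals equal moved the median of all genes to 0.18 and that of the members to 0.21 on the log2 scale, so the signs of Mta1, Hdac1 and Hdac2 are not fixed. Under that scaling the log2 fold changes were 0.60 for Gatad2b, 0.53 for Chd4, 0.46 for Gatad2a and 0.38 for Mta2, and the interval counts above do not apply to it.

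**Figure D2:**
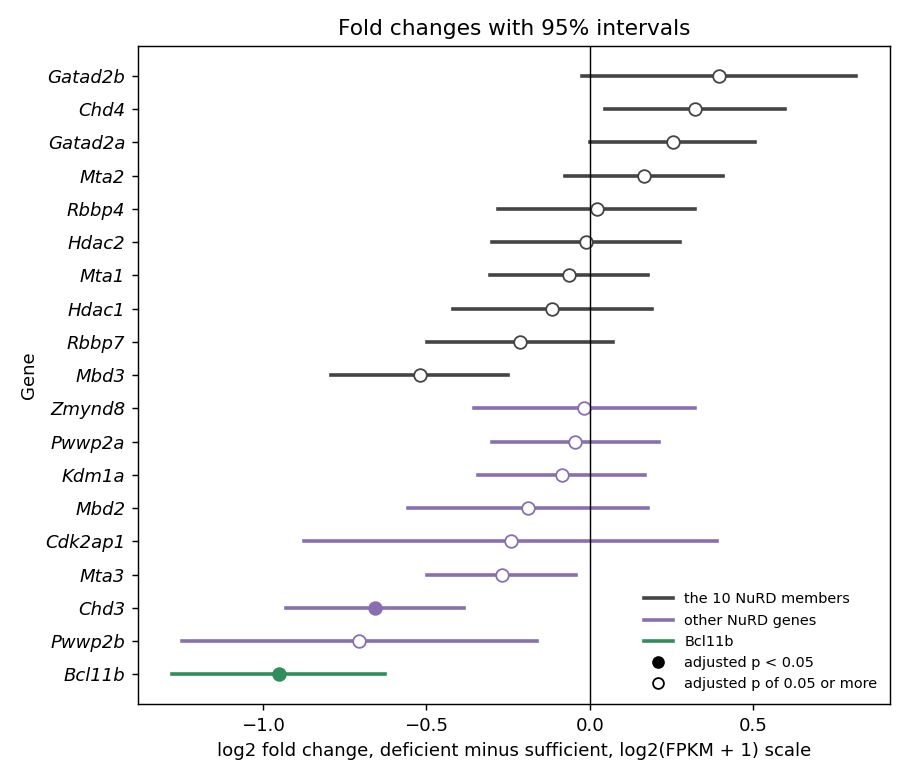
Log2 fold changes (deficient minus sufficient, log2(FPKM + 1) scale) with 95% intervals from limma for the 10 NuRD members, for 8 other NuRD genes and for Bcl11b. Filled points passed an adjusted p of 0.05; among NuRD genes only Chd3 did, at -0.66, while the members ranged from -0.52 (Mbd3) to 0.40 (Gatad2b).

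Beside the members, 9 other genes of NuRD and its attached factors were listed, of which 8 passed the filter. Of these 0 were called higher and 1 lower, beside 1.93% and 0.697% of all genes tested. At an unadjusted p under 0.05 there were 3, all lower, beside 17.8% of all genes tested. The list's median log2 fold change was -0.22. A positive log2 fold change was found for 0 of the 8, beside 47.9% of all genes tested. The called gene was Chd3, the alternative ATPase of NuRD (chromosome 11, 69343273 to 69369406, minus strand). It had 113, 104, 102 and 101 FPKM across deficient columns 1 to 4, against 159, 184, 150 and 162 FPKM across sufficient columns 1 to 4. Every deficient column was below every sufficient column, and the log2 fold change was -0.66 (SE 0.12, 95% interval -0.93 to -0.39, limma adjusted p = 0.0367). The sign held under every alternative run, while the call ended without a filter (0.0787), with a filter at 5 FPKM (0.0541), with totals made equal (0.164), with quantile normalization (0.0839) and without either sufficient replicate 2 (0.0735) or sufficient replicate 4 (0.0798). It also ended without deficient replicate 3 (0.0545) and when an averaged pair was dropped: 0.196 for deficient 1 with 3, 0.212 for deficient 2 with 4 and 0.0655 for sufficient 1 with 3. With a replicate block on the independent libraries it ended too (log2 fold change -0.65, adjusted p = 0.0633). The part of the macrophage and NK marker transcripts, whose sums differed between the same libraries, was not tested. Chd5, which is chiefly known from neurons, was at 0.191 FPKM in deficient libraries, against 0.0971 FPKM in sufficient ones.

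Other members of that list did not pass. Mta3, the third scaffold paralog, measured 35.3 ± 0.827 FPKM in deficient libraries, against 42.8 ± 1.69 FPKM in sufficient ones (log2 fold change -0.27, adjusted p = 0.217), with no overlap between them. Mbd2, the alternative to Mbd3, measured 77.9 ± 2.53 FPKM in deficient libraries, against 89.8 ± 15.5 FPKM in sufficient ones, which overlapped.

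Shares within a paralog pair do not depend on how a library was scaled, and 6 pairs were compared. Chd4 made up 58.04% and 58.1% of the summed Chd4 and Chd3 FPKM in the 2 deficient libraries and 42.0%, 41.4% and 40.1% in the 3 sufficient libraries. By FPKM, Chd4 was thus the more abundant ATPase transcript in each deficient library and Chd3 in each sufficient library. Which of them is higher also rests on the transcript lengths used for FPKM. The difference was 16.9 percentage points, between means of 58.1% ± 0.0734 in deficient and 41.2% ± 0.948 in sufficient libraries (SD, n = 2 and 3; exact two-sided permutation p = 0.1, the smallest possible; 0.15 adjusted over the 6 pairs). It lay between 16.43 and 17.45 points when any single column or averaged pair was left out.

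**Figure D3:**
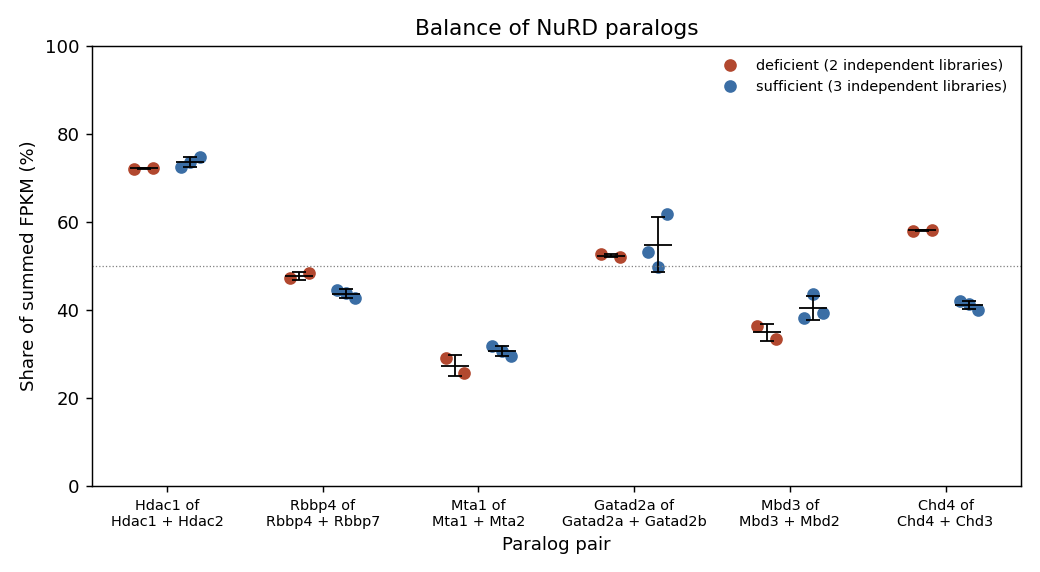
Share of the first gene in the summed FPKM of each paralog pair (percent, linear axis from 0), 1 point per independent library, deficient left of sufficient, with mean ± SD. The Chd4 share was near 58% in deficient and between 40.1% and 42.0% in sufficient libraries, the widest gap of the 6 pairs.

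The other pairs differed by less. Mbd3 made up 35.0% ± 2.01 of Mbd3 plus Mbd2 in deficient and 40.5% ± 2.81 in sufficient libraries, a difference of -5.53 points. Rbbp4 made up 47.9% ± 0.895 of Rbbp4 plus Rbbp7 in deficient and 43.8% ± 0.941 in sufficient libraries, a difference of 4.08 points. Mta1 made up 27.4% ± 2.33 of Mta1 plus Mta2 in deficient and 30.7% ± 1.20 in sufficient libraries. The libraries of these 3 pairs did not overlap between groups (exact permutation p = 0.1 each, 0.15 adjusted over the pairs). Levels of single genes did not overlap for 36.7% of all genes tested, and shares of gene pairs outside NuRD were not computed. The Mta1 difference of -3.30 points was -1.66 points without deficient 2 with 4 and -4.95 points without deficient 1 with 3. Hdac1 made up 72.2% ± 0.0963 of the deacetylase pair in deficient and 73.6% ± 1.11 in sufficient libraries (exact permutation p = 0.2). The libraries of this pair did not overlap either, at 72.1% and 72.3% in deficient and 72.5%, 73.5% and 74.8% in sufficient cells. Gatad2a made up 52.4% ± 0.389 of the p66 pair in deficient and 54.9% ± 6.17 in sufficient libraries (exact permutation p = 0.8), and that difference changed sign without sufficient replicate 4.

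As a share of the summed FPKM of the 10 members, Chd4 held 20.3% and 21.9% in the deficient libraries and 15.6% to 19.8% in the sufficient libraries. Mbd3 held 5.74% and 6.38% in deficient libraries and 8.60% to 9.63% in sufficient libraries. Rbbp7 also held a smaller share, 9.16% and 10.6% in deficient libraries, against 11.2% to 12.2% in sufficient ones. These shares are a description without a test.

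The 3 genes whose pattern over the 5 libraries was nearest to that of Chd4 were Cdk12, Fnbp1 and Il6st, with Euclidean distances of 0.0309, 0.0394 and 0.0471 between log2(FPKM + 1) values centred per gene, among 6564 genes at a mean of at least 10 FPKM. Nearest to Hdac1 were Arl6ip5, N4bp2l1 and Vdac1, at distances of 0.0472, 0.0519 and 0.0613. None of the 6 was called between groups. Among the members the nearest pair was Hdac1 with Hdac2 (0.161) and the farthest was Mbd3 with Gatad2b (1.18).

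Corepressor and remodelling complexes that share subunits or partners with NuRD followed next, with few genes at an unadjusted p under 0.05. In the SIN3 list, a deacetylase complex built on Hdac1, Hdac2 and the Rbbp proteins, 0 of 12 tested genes were called in either direction (median log2 fold change -0.02). Its most abundant member Sin3b measured 92.0 ± 3.34 FPKM in deficient libraries, against 104 ± 3.81 FPKM in sufficient ones, and Suds3 44.5 ± 0.186 FPKM in deficient libraries, against 46.9 ± 2.58 FPKM in sufficient ones. In the CoREST list 0 of 6 were called (median 0.03), with the demethylase gene Kdm1a at 31.3 ± 0.258 FPKM in deficient libraries, against 33.3 ± 2.68 FPKM in sufficient ones. In the NCoR and SMRT list 0 of 6 were called (median 0.08); Ncor1, the scaffold that activates Hdac3, measured 78.6 ± 1.99 FPKM in deficient libraries, against 60.2 ± 9.03 FPKM in sufficient ones (adjusted p = 0.210). Gps2 averaged 70.7 FPKM in deficient libraries, against 80.0 FPKM in sufficient ones. At an unadjusted p under 0.05 these 3 lists held 0, 1 and 1 genes, beside 17.8% of all genes tested.

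The Polycomb PRC2 and CAF-1 list, whose complexes use Rbbp4 or Rbbp7 as histone binders, had 0 of 10 called (median 0.07), with Suz12 at 44.5 ± 4.45 FPKM in deficient libraries, against 42.2 ± 4.79 FPKM in sufficient ones. Phf1 averaged 77.1 FPKM in deficient libraries, against 82.5 FPKM in sufficient ones. The BAF list, the remodelling complex in which Bcl11b has also been found, had 0 of 20 called (median -0.03), with Arid1a at 96.8 ± 14.2 FPKM in deficient libraries, against 86.1 ± 6.76 FPKM in sufficient ones. Smarcd2 averaged 71.5 FPKM in deficient libraries, against 76.4 FPKM in sufficient ones. Among 15 other tested histone deacetylases, sirtuins included, 0 were called (median -0.03), and Hdac7 and Sirt7 were the most abundant, at 96.1 and 93.0 FPKM in deficient and 94.8 and 95.1 FPKM in sufficient libraries. Proliferation genes had 0 of 18 called (median 0.18), and 15 of the 18 had a positive log2 fold change. The 2 most abundant, Pcna and Mcm6, went the other way. Pcna measured 158 ± 11.9 FPKM in deficient libraries, against 172 ± 23.4 FPKM in sufficient ones. Mcm6 averaged 57.8 FPKM in deficient libraries, against 61.2 FPKM in sufficient ones. Unadjusted, these 4 lists held 0, 3, 2 and 0 genes, beside the same 17.8% of all genes tested.

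**Figure D4:**
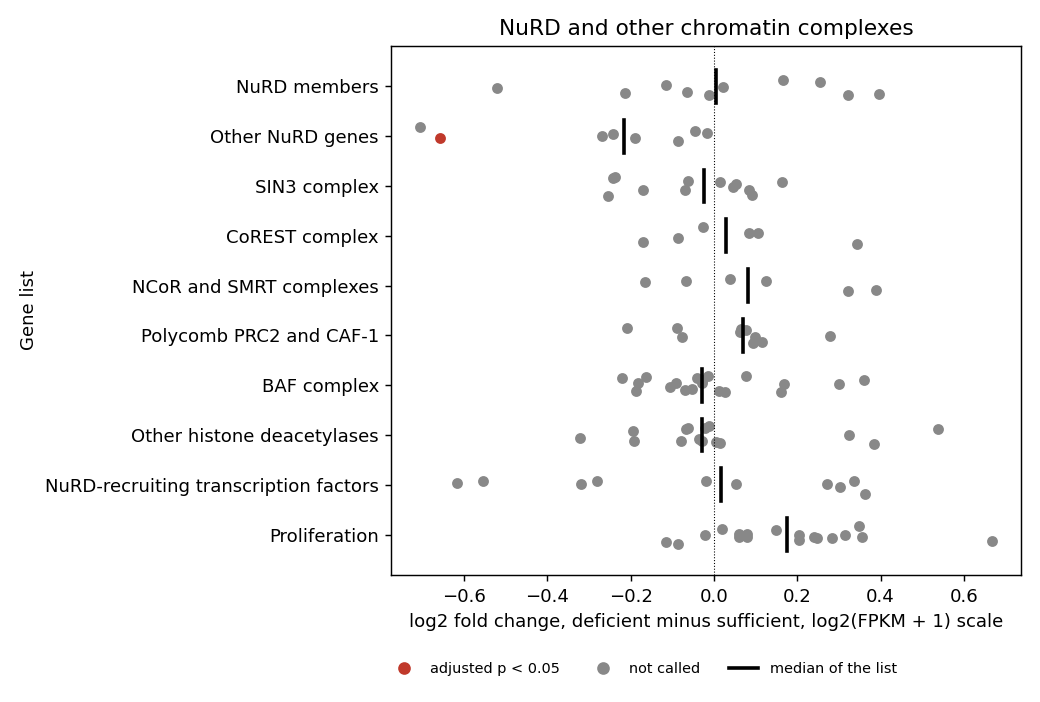
Log2 fold changes (deficient minus sufficient, log2(FPKM + 1) scale) of the tested genes in 10 lists, the NuRD members, other NuRD genes, other chromatin complexes and deacetylases, recruiting factors and proliferation genes, 1 point per gene, with the list's median as a bar; points are spread vertically for visibility. Among the genes drawn only Chd3, in the list of other NuRD genes, passed an adjusted p of 0.05, and the medians drawn ran from -0.22 to 0.18.

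Among transcription factors known to bring NuRD to DNA in lymphocytes and other cells, 0 of 10 tested were called, beside 2.63% of all genes. At an unadjusted p under 0.05 there were 4 of the 10 (2 higher, 2 lower), beside 17.8% of all genes tested. Bcl11a, the closest relative of Bcl11b, was at 0.588 FPKM in deficient libraries, against 0.179 FPKM in sufficient ones, and was not tested. Ikzf1, which encodes Ikaros, measured 153 ± 7.61 FPKM in deficient libraries, against 119 ± 11.5 FPKM in sufficient ones (log2 fold change 0.36, adjusted p = 0.179). Ikzf4, which encodes Eos and was picked after its values were seen, measured 19.6 ± 1.32 FPKM in deficient libraries, against 30.7 ± 4.65 FPKM in sufficient ones (log2 fold change -0.62, adjusted p = 0.0750). The most abundant of them was Foxp3, given above.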

How the data were processed

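The deposited table holds FPKM per gene, made by the authors. Named in the submitters' processing notes are the build mm10, the aligner STAR (2.5.1), Cuffdiff and Cuffnorm (both 2.2.1), and for read trimming and quality cutadapt (1.12), Trim Galore (0.4.2) and FastQC; per the labels' protocols the libraries came from a stranded total RNA kit with 15 PCR cycles. Of 16 value columns, 8 matched samples by name and 8 were not used. The depth per column, 2870000 to 12600000 fragments, is an approximation from FPKM steps of single-transcript genes, and depth sets the precision of low genes.

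Columns of a group that agreed within read-sampling noise were averaged. Genes averaging 1 FPKM or more across independent libraries were tested with limma 3.58.1 in R 4.3.3 (trend, log2(FPKM + 1), Benjamini-Hochberg over 10614 genes); fold changes on this scale understate changes of low genes. The fit was tested on simulated data with changes of 2-fold or more and independent noise of the same size for every gene. Smaller changes, such as those of the members, were not covered. Paralog shares were tested by exact two-sided permutation. The text names every member, called list genes, the 2 most abundant of each list, paralog partners and the nearest patterns; Bcl11a, Chd5, Ikzf4 and single markers stand outside that rule and were named after their values were seen. Members and lists were chosen with earlier results of these data known. Alternatives covered the pseudocount, filter, scaling, averaging, replicate block, empirical Bayes setting and left-out libraries. A protein motif search was not analysed here. Some genes that the naming rule covers are not reported here.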

Additional observations from a re-analysis of the deposited data

How the results depend on the processing

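The count of genes called, 279, was 182 with a pseudocount of 0.1, 99 with no filter, 113 with a filter at 5 FPKM and 1851 with 8 columns as separate libraries, and 8 to 297 when a column or averaged pair was left out (80 without sufficient replicate 2, 133 without sufficient replicate 4, 167 without sufficient replicates 1 and 3, and, leaving out deficient pairs, 16 without replicates 1 and 3 and 8 without replicates 2 and 4). With totals made equal it was 371, of which 91.9% were higher in deficient cells, against 73.5% for values as deposited. Members called were 3 with 8 columns and 0 to 0 over the left-out columns. Genes called in the chromatin lists, 1 for values as deposited, were 0 with no filter, with a filter at 5 FPKM, with totals made equal and with quantile normalization, and 14 with 8 columns. Over 8 columns the replicate block gave 1418 genes, 3 members (Chd4, Gatad2b and Mbd3) and 9 list genes. Over independent libraries it gave 0 members and 0 list genes. Deviations of same-numbered columns from their group means correlated at 0.0293 to 0.126. The best-matching sufficient column had the same number for deficient replicates 2, 3 and 4, and was replicate 2 for deficient replicate 1. Whether same-numbered columns share more than a number was not tested.

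With totals made equal the log2 fold changes of Mta1, Hdac1 and Hdac2 were 0.1452, 0.09583 and 0.1956, and with quantile normalization that of Hdac2 was 0.02941. Over left-out columns they ranged from -0.1518 to 0.0246 for Mta1, -0.1002 to 0.04959 for Hdac2 and -0.1403 to 0.182 for Rbbp4. The Gatad2a share difference ranged from -5.095 to 0.9007 points. With 8 columns the share differences were 16.74 points for Chd4 and 3.867 points for Rbbp4 (exact permutation p = 0.02857 each). The causes were not tested. Chd4, Mta2, Gatad2a, Gatad2b, Mbd3 and Chd3 kept their sign in all 21 alternatives, and Rbbp7 ranged from -0.3387 to -0.003159. Bcl11b stayed lower in all 21, with adjusted p from 0.000378 to 0.133.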

Other observations

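Hdac1 differed between columns that were otherwise alike. In each of the 3 averaged pairs the deeper column held more Hdac1 FPKM than the shallower one, by 1.16, 1.18 and 1.15 times, while the other members lay between 0.917 and 1.09 times. Mta1 lay below 1 in each pair (0.948, 0.933 and 0.946 times), as did Chd3 (0.903, 0.972 and 0.944 times). Hdac2 and Rbbp4 lay above 1 in each pair. Of 10469 genes compared, 302 (2.88%) were over 1.1 times in all 3 pairs, and 216 (2.06%) were under 1/1.1 times. The cause was not tested. The Hdac1 share of the deacetylase pair was 71.0%, 70.7%, 73.2% and 73.7% in deficient replicates 1 to 4 and 71.3%, 73.5%, 73.7% and 74.8% in sufficient replicates 1 to 4.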
